A study of Rattus norvegicus with 30 samples.

Results

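The genes of glutathione synthesis and cystine import were followed as a set of 10, taken by symbol from the 21993 genes listed in the tables of cultured rat hippocampal neurons: *Slc7a11*, *Gclc*, *Gclm*, *Gss*, *Ggct*, *Chac2*, *Gsr*, *Gpx1*, *Gpx4* and *Glrx*. All 10 passed the filter on low values in every comparison, and the lowest value of any of them in any library was 78 reads, for *Chac2*. The set was defined by function, with earlier results of these data known.

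Glutathione is the most abundant small thiol of animal cells, and its supply in neurons is set largely by cysteine. Cystine enters cells in exchange for glutamate through system xc-, made of the transport subunit Slc7a11 and the heavy chain Slc3a2, and in brain tissue this exchanger is better known in astrocytes than in neurons. Inside the cell cystine is reduced to cysteine, glutamate-cysteine ligase (Gclc and Gclm) and glutathione synthetase (Gss) build the tripeptide, peroxidases and glutaredoxin (Gpx1, Gpx4, Glrx) spend it, glutathione reductase (Gsr) regenerates it, and cyclotransferases (Chac1, Chac2, Ggct) break it and related gamma-glutamyl compounds down. Several of the synthesis genes are textbook targets of the transcription factor Nrf2, and *Slc7a11* is one of both Nrf2 and ATF4, the factor of the amino acid and endoplasmic reticulum stress responses.

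Poly(A) RNA was sequenced from wild-type primary neurons of Wistar rat embryos, taken on embryonic day 18 and kept for 7 days in neurobasal medium with B-27. Dimethyl fumarate (DMF, 30 µM) and its monoester monomethyl fumarate (MMF, 30 µM) were given in DMSO, and cannabidiol (CBD, 6 µM), a plant cannabinoid, in ethanol (EtOH), with the vehicle at 0.2% in every culture. Libraries were made after 4 h and 24 h, in 10 groups of 3 that came from 3 repeats of the experiment, and all groups share genotype, age and medium. The study asked how these compounds change gene expression in neurons, and each drug was therefore set against its own vehicle at the same time. The p-values set a difference against the spread between the 3 repeats within groups. In the fit that takes account of replicate numbers, given below, they set it against how the difference varies between the 3 repeats.

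The libraries held 15108132 to 25367834 reads on genes (median 20088658). The cultures were not pure: all 10 neuronal markers examined were present, but so were all 9 astrocyte markers and 8 of 8 markers of the oligodendrocyte lineage, whereas the 8 microglial markers summed to 26.2 to 246 normalised reads per library. The summed astrocyte markers were lowest in replicate 3 of every group, at 42499 to 60010 normalised reads, against 71228 to 96667 in replicate 1 and 80378 to 108962 in replicate 2. In such bulk samples, fewer cells of a type and less RNA per cell cannot be told apart. In the 24 h comparison of DMF with DMSO, limma called 3 of 7 tested oligodendrocyte lineage markers lower (adjusted p under 0.05). These were *Cspg4*, *Pdgfra* and *Sox10* (log2 differences of -1.13, -1.56 and -1.36). It also called 1 of 9 astrocyte markers lower (*Aldh1l1*, -0.65) and 0 of 10 neuronal markers, beside 3.97% of all genes. The summed astrocyte markers lay higher in DMF for each replicate number, as given below. Other markers called lower against vehicle were *Tubb3* and *Pdgfrb* for DMF at 4 h and *Gad1* and *Gad2* for CBD at 24 h. Between DMF and MMF at 24 h, 3 of 8 oligodendrocyte lineage markers (*Cspg4*, *Pdgfra*, *Sox10*) were called lower with DMF, beside 3.56% of all genes. So was 1 of 5 markers of fibroblasts and mural cells, *Col1a2* at 24 h and *Pdgfrb* at 4 h. The part of these changes in the results below was not tested.

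DMF was the only drug with which members of the set passed the test used first, a limma fit that ignores replicate numbers. In a fit that takes account of replicate numbers, given below, members also passed with MMF at 24 h and CBD at 4 h. Values are the authors' normalised read counts, fold changes are on the log2 scale (log2FC, after adding 1), and a gene was called at an adjusted p under 0.05 by limma over all genes tested. Under this test *Gclc* and *Slc7a11* rose after 24 h of DMF, 2 of 10 members where 3.97% of all genes tested were called. After 4 h of DMF 0 of 10 were called by limma, which called 3.41% of all genes. There edgeR called 0 members, beside 3.51% of all genes, and DESeq2 called 2, beside 7.21%. At that time 3 members (*Gclc*, *Gclm*, *Slc7a11*) had an unadjusted p under 0.05 in limma, as had 20.1% of all genes. The 10 members had a median log2FC of 0.13 at 4 h and 0.17 at 24 h, beside 0.00 and -0.01 for all genes tested.

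MMF and CBD gave 0 of 10 called at either time by limma, edgeR and DESeq2. The background was low there too. Of all genes, limma called 0% for MMF at 4 h, 0.00707% for MMF at 24 h, 0.00705% for CBD at 4 h and 0.114% for CBD at 24 h. In the same order edgeR called 0%, 0.00707%, 0.00705% and 0.0852%, and DESeq2 0%, 0.0566%, 0.127% and 1.14%. Members with an unadjusted p under 0.05 numbered 1 for MMF at 4 h (*Gclc*), 2 for MMF at 24 h (*Gclc* and *Ggct*), and 2 for CBD at each time (*Gclm* and *Slc7a11*). Of all genes, 0.257%, 4.43%, 3.97% and 9.83% had such a p for MMF at 4 h and 24 h and CBD at 4 h and 24 h.

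Libraries with the same replicate number deviated together, so a limma fit with the replicate number as a block was set beside each result. The exception was replicate 2 of MMF and DMSO at 4 h, with a correlation of 0.129 beside up to 0.134 between other numbers. With the block, *Gclc*, *Gclm* and *Slc7a11* were called for DMF at 4 h, 3 of 10 where 23% of all genes were called, and *Gclc*, *Slc7a11* and *Gss* for DMF at 24 h, 3 of 10 beside 12.9%. For MMF, 0 members were called at 4 h, where the blocked fit called 0% of all genes, and *Gclc* and *Slc7a11* were called at 24 h beside 1.38%. For CBD, *Slc7a11* was called at 4 h beside 2.33%, and 0 members were called at 24 h beside 0.504%. At 24 h of CBD edgeR with the block also called 0, beside 0.462%. Every member called in either fit had a higher mean than its vehicle.

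**Figure D1:**
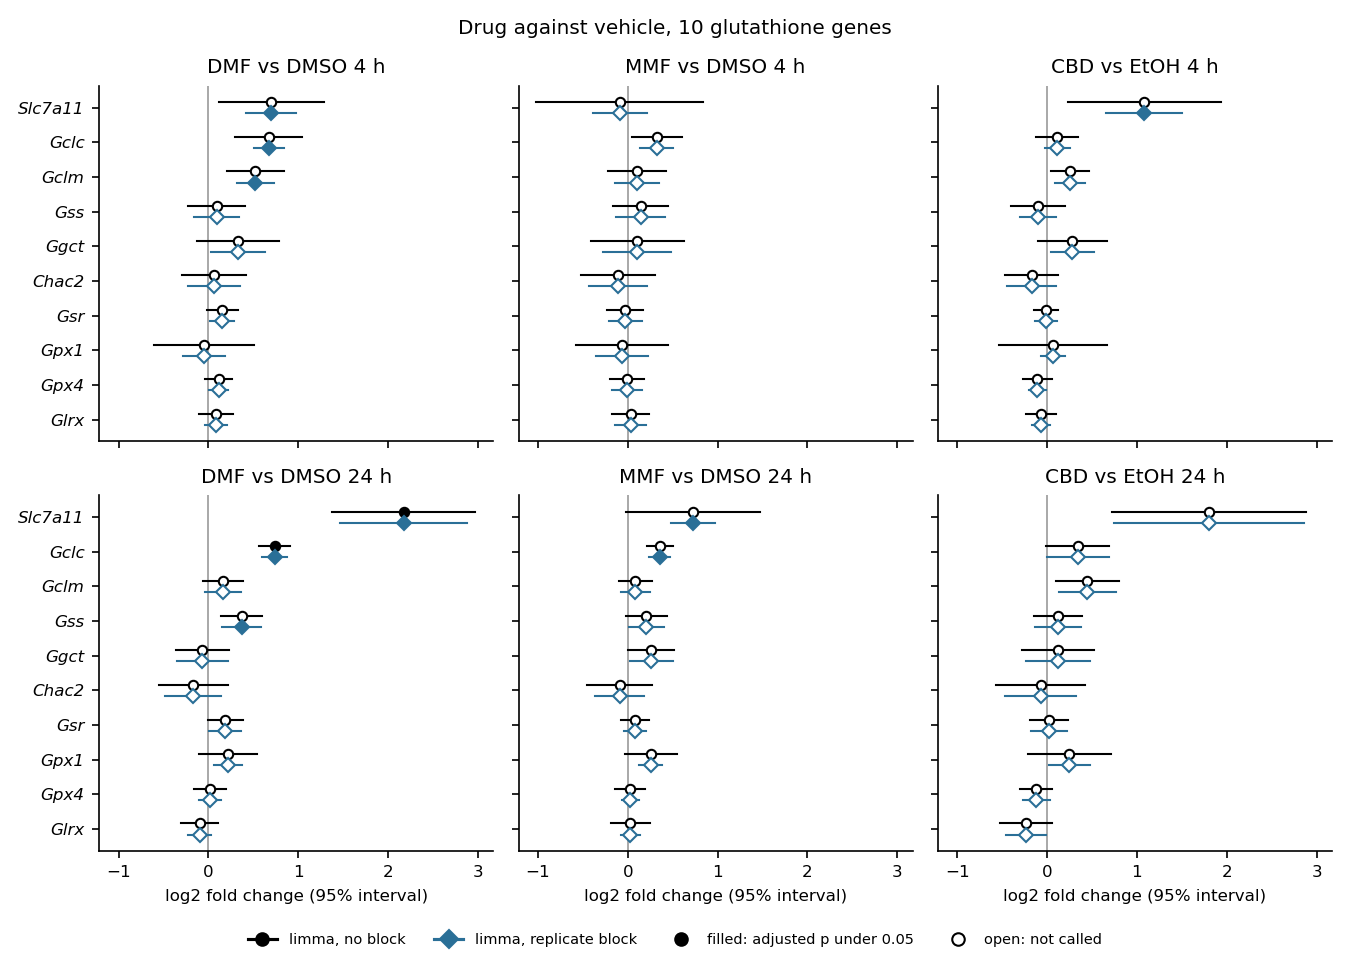
Log2 fold changes (x axis) of the 10 genes against vehicle, with 95% intervals, in limma fits without (circles) and with (diamonds) the replicate block, and filled symbols for an adjusted p under 0.05. *Slc7a11* and *Gclc* lie farthest to the right after 24 h of DMF, at 2.17 and 0.74, while *Gpx4*, *Glrx* and *Chac2* lie between -0.24 and 0.11 in all 6 comparisons.

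Groups that did not overlap, with every drug library on the same side of every vehicle library, were counted as a check that uses no model. For DMF at 4 h, 5 members (*Gclc*, *Gclm*, *Gsr*, *Slc7a11*, *Gpx4*) lay wholly above DMSO, beside 26.3% of all genes without overlap. At 24 h, 3 members did (*Gclc*, *Gss*, *Slc7a11*), beside 22.8%. For MMF the number was 0 at 4 h, beside 2.76%, and 3 at 24 h (*Gclc*, *Gss*, *Ggct*), beside 9.73%. For CBD it was 3 at 4 h (*Gclm* and *Slc7a11* above, *Chac2* below EtOH), beside 9.95%, and 4 at 24 h (*Gclm*, *Gss* and *Slc7a11* above, *Gpx4* below), beside 15.9%. Where a member is said below to lie on the same side of vehicle for each replicate number, no share of all genes is given. Such agreement is a description only.

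Promoter windows of the cystine transport subunit and both ligase subunits are shown because these were the members called with the block for DMF at 4 h. They run from 250 bases before to 50 bases after the gene start, as RefSeq gives it on GRCr8, and capitals mark a match to TGACNNNGC, the core of the antioxidant response element that Nrf2 binds. The windows are chr2:136668215-136668514 on the minus strand for *Slc7a11*, chr8:87510226-87510525 on the plus strand for *Gclc* and chr2:213031885-213032184 on the plus strand for *Gclm*.
Slc7a11: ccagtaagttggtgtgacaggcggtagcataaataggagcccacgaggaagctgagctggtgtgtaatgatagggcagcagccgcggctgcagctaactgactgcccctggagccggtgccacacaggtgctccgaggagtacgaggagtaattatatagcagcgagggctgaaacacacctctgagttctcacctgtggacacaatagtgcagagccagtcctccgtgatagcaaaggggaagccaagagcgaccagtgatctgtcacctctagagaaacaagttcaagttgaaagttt
Gclc: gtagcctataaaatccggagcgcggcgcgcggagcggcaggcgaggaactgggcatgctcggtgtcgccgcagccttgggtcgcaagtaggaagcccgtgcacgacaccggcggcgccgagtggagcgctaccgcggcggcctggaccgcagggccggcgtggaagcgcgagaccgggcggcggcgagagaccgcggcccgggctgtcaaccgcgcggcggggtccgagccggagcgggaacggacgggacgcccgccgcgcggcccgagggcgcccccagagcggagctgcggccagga
Gclm: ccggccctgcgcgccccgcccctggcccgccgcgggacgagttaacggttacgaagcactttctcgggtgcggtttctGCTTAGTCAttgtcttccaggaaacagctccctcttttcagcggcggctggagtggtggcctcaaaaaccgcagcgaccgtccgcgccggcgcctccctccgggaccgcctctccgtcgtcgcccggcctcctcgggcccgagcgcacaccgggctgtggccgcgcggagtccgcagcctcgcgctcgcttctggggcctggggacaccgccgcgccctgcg

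The *Gclm* match, GCTTAGTCA as read on the plus strand, begins 172 bases before the gene start. Both strands were searched, overlapping matches included, for TGACNNNGC and for TGATGNAA, a CEBP-ATF response element of the kind ATF4 binds. Of 33469 rat promoter windows of this length, 12.1% hold the first motif and 3.98% the second. Among the 9 member genes with a window (11 windows), 1 gene held the first motif and 0 held the second. A match is a description of letters, and its absence says only that these letters are not in that window.

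*Slc7a11*, the transport subunit of the cystine and glutamate exchanger, had the highest log2FC of the set in 5 of the 6 drug comparisons, MMF at 4 h being the exception. After 24 h of DMF its normalised read counts were 505, 490 and 1297 in replicates 1, 2 and 3, against 171, 182 and 110.6 in DMSO. All 3 DMF libraries lay above all 3 DMSO libraries, and replicate 3 held both the highest treated and the lowest vehicle value. The mean was 4.95-fold that of DMSO and the log2FC was 2.17 ± 0.353 (SE, 95% interval 1.38 to 2.97, limma adjusted p = 0.0122). Its log2FC was 1.71 without replicate 3 of DMF (adjusted p = 0.00118), and the call was lost without replicate 1 of DMSO (adjusted p = 0.0599) and without replicate 1 or 2 of both groups (adjusted p = 0.12 and 0.062). Over all genes, limma called 554 with all libraries and 141 without replicate 1 of DMSO. Without replicate 1 or 2 of both groups it called 62 and 75.

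After 4 h of DMF, *Slc7a11* stood at 369, 421 and 315 normalised reads against 306, 254 and 146 in DMSO. The groups did not overlap, but the log2 ratios to the DMSO library of the same number spread from 0.27 in replicate 1 to 0.73 in replicate 2 and 1.10 in replicate 3. The log2FC of 0.70 ± 0.256 was not called without the block (adjusted p = 0.174) and was called with it (adjusted p = 0.00143). The difference between the DMF effects at 24 h and 4 h, tested as an interaction over 12 libraries, was 1.47 ± 0.50 (95% interval 0.39 to 2.56) and missed the threshold (limma adjusted p = 0.121, with the block 0.0508). In this comparison limma called 0 of 10 members, with or without the block, beside 4.12% and 13.2% of all genes, and 1 member, *Slc7a11*, had an unadjusted p under 0.05, as had 19.3% of all genes. DESeq2 and edgeR without the block also called 0, beside 6.88% and 4.21% of all genes. In edgeR with the block *Slc7a11* passed (adjusted p = 0.0429).

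With MMF, *Slc7a11* gave 307, 228 and 103 normalised reads at 4 h against 280, 232 and 133 in DMSO, groups that overlap throughout (log2FC -0.09 ± 0.407). At 24 h it gave 335, 365 and 150 against 180, 191 and 116. Each MMF library lay above the DMSO library of its number, but replicate 3 of MMF lay below replicates 1 and 2 of DMSO. The log2FC of 0.73 ± 0.328 had an adjusted p of 0.952 in limma without the block and 0.00544 with it, and without replicate 3 of both groups it was 0.91 and called (adjusted p = 0.0461).

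With CBD at 24 h, *Slc7a11* reached 347, 1122 and 1316 normalised reads against 325, 214 and 172 in EtOH. The groups did not overlap, yet replicate 1 of CBD lay just above replicate 1 of EtOH, with a log2 ratio of 0.09, where replicates 2 and 3 had ratios of 2.38 and 2.93. The log2FC was 1.80 ± 0.470 (95% interval 0.72 to 2.88) and was not called (limma adjusted p = 0.327, with the block 0.125). It was 2.40 and called without replicate 1 of CBD (adjusted p = 0.00965), and 2.66 and called without replicate 1 of both groups (adjusted p = 0.0293).

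At 4 h of CBD the counts were 283, 515 and 428 against 266, 237 and 103, with log2 ratios of 0.09, 1.11 and 2.04 for replicates 1, 2 and 3. Replicate 1 again showed the smallest difference. The log2FC of 1.08 ± 0.367 was called with the block (adjusted p = 0.0055) and not without it (adjusted p = 1).

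**Figure D2:**
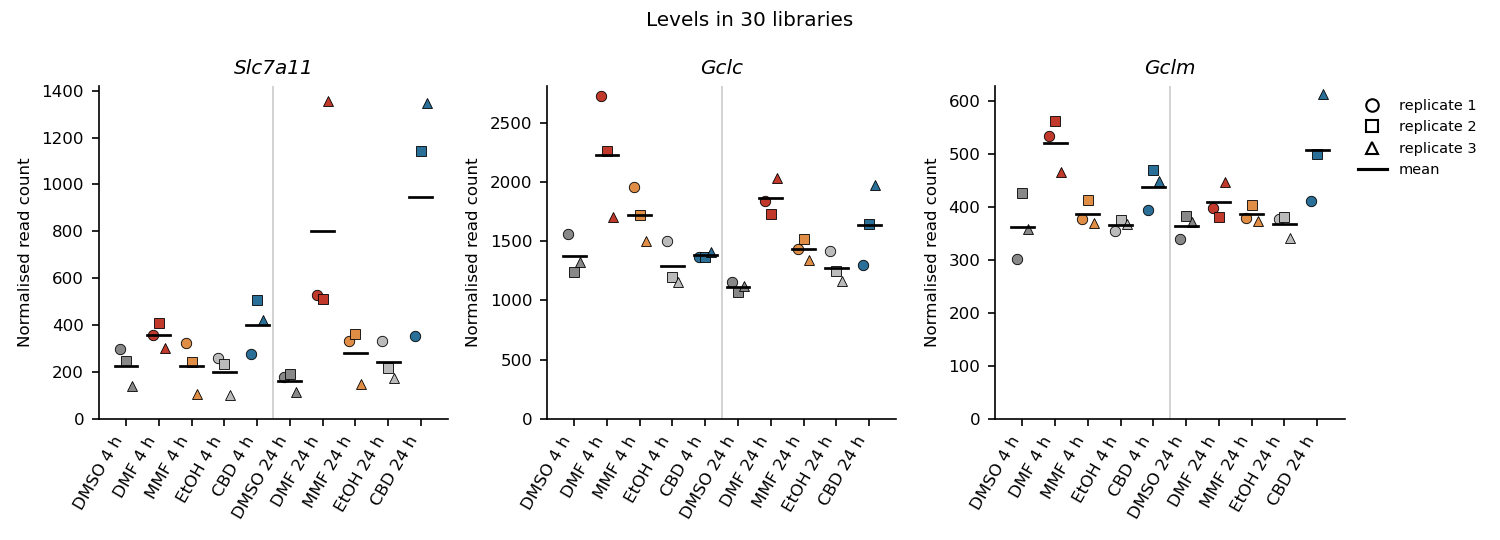
Normalised read counts (y axes, from 0) of *Slc7a11*, *Gclc* and *Gclm* in the 30 libraries, scaled together, by group (x axis), with circles, squares and triangles for replicates 1, 2 and 3 and bars for group means. The *Slc7a11* means run from 162 in DMSO at 24 h to 947 in CBD at 24 h, and replicate 1 of CBD at 24 h stays near the vehicles.

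Scaled over all 30 libraries, *Slc7a11* ranged from 102 to 1357 normalised reads. Its group means in descending order were 947 ± 524 (SD, n = 3) for CBD at 24 h, 800 ± 483 for DMF at 24 h, 403 ± 116 for CBD at 4 h, 357 ± 51.7 for DMF at 4 h, 282 ± 116 for MMF at 24 h and 242 ± 80.7 for EtOH at 24 h. DMSO at 4 h (227 ± 79.6), MMF at 4 h (225 ± 109), EtOH at 4 h (199 ± 85.4) and DMSO at 24 h (162 ± 40.0) followed. Of the 9 pairs of neighbours in this order, 8 overlapped in range, and the exception was DMF at 24 h over CBD at 4 h.

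The vehicle level of *Slc7a11* differed by replicate number. In the 4 vehicle groups it ran from 179 to 331 normalised reads in replicate 1, 190 to 245 in replicate 2 and 102 to 175 in replicate 3. Replicate 3 was thus below replicates 1 and 2 in each vehicle group, as were its summed astrocyte markers given above. The part of astrocyte content in the *Slc7a11* differences was not tested. Within the 24 h DMF comparison the astrocyte sum was 96667, 108962 and 60010 in DMF against 78808, 94587 and 56188 in DMSO, and it thus lay higher in DMF for each replicate number, although the 9 markers had a median log2 difference of -0.20 there. With CBD at 24 h the sum was 94103, 84859 and 42499 against 90831, 96866 and 58376 in EtOH, lower in replicates 2 and 3, and *Slc7a11* was higher in those replicates.

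The *Slc7a11* values carry a limit of annotation. The gene model in the files spans 554430 bases (chr2:133963107-134517536 in mRatBN7.2), where RefSeq on GRCr8 gives 135649, so reads from elsewhere in the longer model may be included. How many was not tested.

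**Figure D3:**
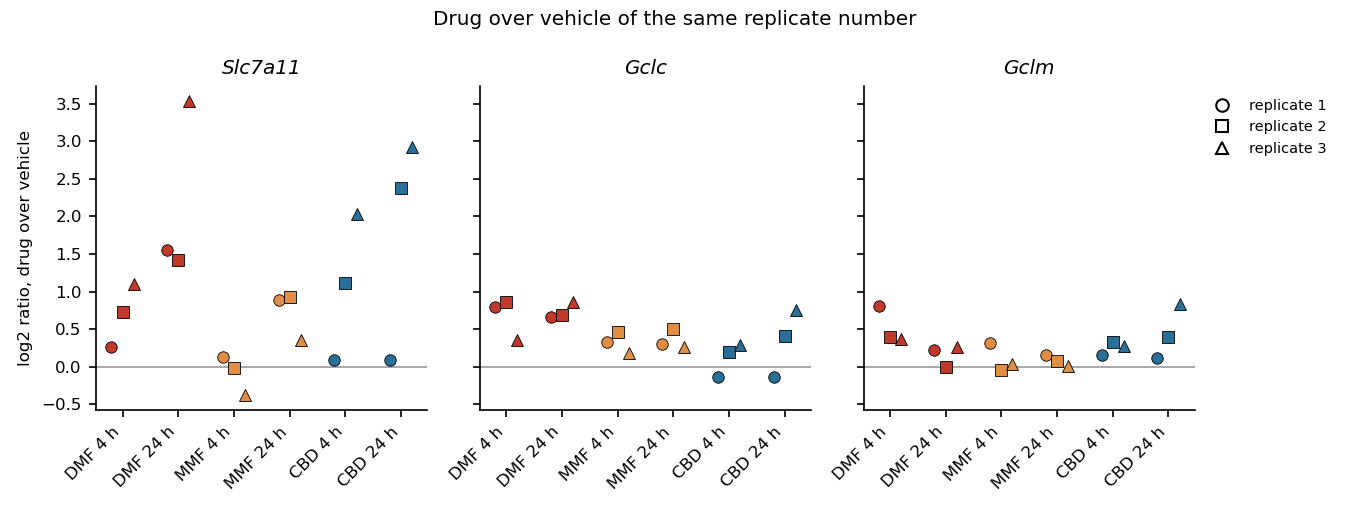
Log2 ratios of drug over the matching vehicle library, paired by replicate number (y axis), for *Slc7a11*, *Gclc* and *Gclm* in the 6 drug comparisons (x axis), with circles, squares and triangles for replicates 1, 2 and 3. Ratios of *Slc7a11* spread from 1.43 to 3.54 after 24 h of DMF and from 0.09 to 2.93 after 24 h of CBD, while those of *Gclc* after 24 h of DMF lie between 0.67 and 0.86.

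*Gclc* encodes the catalytic subunit of glutamate-cysteine ligase, the rate-limiting enzyme of glutathione synthesis (chr8:78630127-78668544 in mRatBN7.2), and its 3 replicates lay close together after 24 h of DMF. After 24 h of DMF it stood at 1756, 1652 and 1939 normalised reads against 1105, 1027 and 1069 in DMSO. The lowest DMF library thus lay well above the highest DMSO library. The mean was 1.67-fold that of DMSO, with a log2FC of 0.74 ± 0.0754 (95% interval 0.57 to 0.91, limma adjusted p = 0.00137). The call held without any single library and was lost without replicate 1 of both groups (log2FC 0.77, adjusted p = 0.0513).

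At 4 h of DMF the *Gclc* counts were 2807, 2334 and 1758 against 1612, 1287 and 1375. The groups did not overlap, and replicate 3 had the smallest ratio (log2 0.35, against 0.80 and 0.86). The log2FC of 0.67 ± 0.163 missed the threshold without the block (adjusted p = 0.0636) and passed with it (adjusted p = 3e-05), in DESeq2 (adjusted p = 0.00191), and without replicate 3 of DMF (adjusted p = 0.0282). The effects at 24 h and 4 h differed by 0.06 ± 0.197 on the log2 scale (95% interval -0.36 to 0.49, adjusted p = 0.908).

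With MMF, *Gclc* was higher than in DMSO for each of the 3 replicate numbers at both times. At 24 h the counts were 1438, 1529 and 1342 against 1163, 1079 and 1123, without overlap, and the log2FC was 0.36 ± 0.0636. This was called with the block (adjusted p = 0.00428) but not without it (adjusted p = 0.776), although *Gclc* ranked 7th of 14137 genes by p. At 4 h the counts were 1845, 1623 and 1420 against 1472, 1175 and 1255, which overlap, and the log2FC of 0.32 ± 0.121 was called in neither fit.

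With CBD, *Gclc* did not depart from EtOH in the same way in the 3 replicates. At 24 h it stood at 1269, 1619 and 1931 normalised reads against 1392, 1223 and 1145. Replicate 1 of CBD lay below its EtOH library and replicates 2 and 3 above theirs, so the groups overlapped and the log2FC of 0.34 ± 0.153 was not called (adjusted p = 0.517, with the block 0.267). At 4 h the log2FC was 0.11 ± 0.10.

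On the common scale *Gclc* was highest in DMF at 4 h (2229 ± 514 normalised reads) and lowest in DMSO at 24 h (1117 ± 40.0), a ratio of 2.00. In between, in descending order, stood DMF at 24 h (1865), MMF at 4 h (1723), CBD at 24 h (1639), MMF at 24 h (1431), CBD at 4 h (1381), DMSO at 4 h (1375), EtOH at 4 h (1286) and EtOH at 24 h (1277). Neighbours in this order overlapped in 8 of 9 pairs, and EtOH at 24 h lay wholly above DMSO at 24 h.

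*Gclm*, the modifier subunit that lowers the ligase's feedback inhibition (chr2:210347482-210367535 in mRatBN7.2), was called for DMF at 4 h in the blocked fit and at 24 h in neither. After 4 h of DMF it stood at 550, 580 and 482 normalised reads against 313, 442 and 374, groups without overlap. The log2FC of 0.52 ± 0.140 missed the threshold without the block (adjusted p = 0.0818) and passed with it (adjusted p = 0.00132) and in DESeq2 (adjusted p = 0.0233). At 24 h it stood at 381, 365 and 427 against 326, 366 and 354, groups that overlap, with a log2FC of 0.16 ± 0.0980 (adjusted p = 0.44). The effect at 24 h minus that at 4 h was -0.36 ± 0.174 (95% interval -0.74 to 0.02, adjusted p = 0.282, with the block 0.14), so a change of the effect with time was not shown.

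For MMF the *Gclm* log2FC was 0.10 ± 0.140 at 4 h and 0.08 ± 0.0805 at 24 h, with overlapping groups. For CBD the *Gclm* libraries lay above EtOH at both times without overlap. At 24 h of CBD they held 404, 491 and 600 normalised reads against 371, 374 and 337, with the smallest ratio again in replicate 1. The log2FC was 0.45 ± 0.151 at 24 h (adjusted p = 0.435, with the block 0.162) and 0.25 ± 0.0924 at 4 h (adjusted p = 1, with the block 0.105). At 24 h it passed only when the spread was estimated from all 30 libraries (adjusted p = 0.0424), as *Slc7a11* did there (adjusted p = 0.047). On the common scale the group means of *Gclm* ran from 363 in DMSO at 4 h to 521 in DMF at 4 h, and all 9 neighbouring pairs of the 10 groups overlapped.

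*Gss*, glutathione synthetase, which adds glycine in the last step of synthesis, stood at 268, 281 and 272 normalised reads after 24 h of DMF against 218, 220 and 197.6 in DMSO. The groups did not overlap. The log2FC of 0.37 ± 0.10 missed the threshold without the block (adjusted p = 0.0869) and passed with it (adjusted p = 0.034). With MMF at 24 h it stood at 267, 272 and 234 against 229, 231 and 208, also without overlap, with a log2FC of 0.21 ± 0.101 (adjusted p = 0.952, with the block 0.309). With CBD its log2FC was -0.10 at 4 h and 0.12 at 24 h. *Gss* overlaps the gene *Acss2* and the strand setting of the counting is not given in the sources used here, so its reads are not certain to be its own.

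The cyclotransferases of the set, *Ggct* and *Chac2*, were called in none of the 6 drug comparisons, with or without the block. *Ggct*, which releases oxoproline from gamma-glutamyl amino acids, had log2FCs from -0.07 (DMF at 24 h) to 0.33 (DMF at 4 h). After 24 h of MMF its counts of 207, 180 and 178 lay wholly above the 147, 156 and 168 of DMSO (log2FC 0.26 ± 0.113, adjusted p = 0.952). *Chac2*, an enzyme that cleaves glutathione itself, had log2FCs from -0.17 (CBD at 4 h) to 0.06 (DMF at 4 h). After 4 h of CBD its counts of 121, 110 and 122 lay wholly below the 126, 131 and 141 of EtOH (log2FC -0.17 ± 0.127, adjusted p = 1). *Chac2* overlaps *Asb3* and has 4 named pseudogenes in RefSeq, which could share reads with it.

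*Gsr*, the reductase that returns oxidised glutathione to its reduced form, was steady across the cultures, with group means from 785 (DMSO at 24 h) to 958 (DMF at 4 h) on the common scale. After 4 h of DMF its counts were 938, 1004 and 1022 against 849, 896 and 919 in DMSO. The groups did not overlap and the 3 log2 ratios lay between 0.14 and 0.17, but the log2FC of 0.15 ± 0.0748 was called in neither fit (adjusted p = 0.301, with the block 0.0913). At 24 h it was 0.19 ± 0.0858 with overlapping groups. For MMF and CBD its log2FCs lay between -0.03 and 0.08.

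The enzymes that use glutathione were called by limma in none of the 6 drug comparisons, with or without the block. *Gpx4*, the peroxidase of membrane lipid hydroperoxides, had log2FCs from -0.12 (CBD at 24 h) to 0.11 (DMF at 4 h). After 4 h of DMF its counts of 3395, 3508 and 3384 lay wholly above the 3192, 3295 and 3021 of DMSO, and after 24 h of CBD its 2708, 2930 and 2869 lay wholly below the 3003, 3035 and 3222 of EtOH. The ratios of the means were 1.08 and 0.919, and neither difference was called in either fit.

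*Gpx1*, the main cytosolic peroxidase for hydrogen peroxide, varied between replicates of a group, with a median coefficient of variation of 23.7% over the 10 groups, against 38.1% for *Slc7a11* and 4.55% for *Gsr*. Its vehicle level ran from 480 to 625 normalised reads in replicate 3 and from 567 to 1038 in replicates 1 and 2. Its log2FC at 24 h was 0.22 with DMF, 0.25 with MMF and 0.25 with CBD, and each drug library lay above the vehicle of its number in all 3 comparisons, though the groups overlapped. None of these was called (adjusted p = 0.48, 0.952 and 0.709, with the block 0.0719, 0.0515 and 0.228), except that edgeR with the block called it for MMF (adjusted p = 0.0387).

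*Glrx*, a cytosolic glutaredoxin that removes glutathione from protein thiols, had log2FCs from -0.24 (CBD at 24 h) to 0.08 (DMF at 4 h). With CBD at 24 h its counts were 2121, 1726 and 1539 against 2183, 1921 and 2191 in EtOH, lower for each replicate number with overlapping groups (adjusted p = 0.573, with the block 0.246). RefSeq names 4 pseudogenes of *Gpx4* and 9 of *Glrx*, whose reads could be shared with the parent genes.

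DMF and MMF, the dimethyl and the monomethyl ester of fumaric acid, were given at the same dose in the same vehicle, and were therefore compared directly, in 20 pairs (10 genes at 2 times). *Gclc* was higher with DMF than with MMF at 24 h, the 1 member called, beside 3.56% of all genes. Its counts in that table were 1941, 1827 and 2140 with DMF and 1516, 1607 and 1413 with MMF, without overlap. The difference was 0.38 ± 0.0812 on the log2 scale (95% interval 0.20 to 0.56, limma adjusted p = 0.0413, with the block 0.0117). The call was lost whichever of the 6 libraries was left out (adjusted p = 0.0603 to 0.172), without any replicate number of both groups (adjusted p = 0.315, 0.159 and 0.103 without replicates 1, 2 and 3), and with the spread of all 30 libraries (adjusted p = 0.164). Over all genes, limma called 506 with all libraries and 156 to 711 without 1 library. Without replicates 1, 2 and 3 of both groups it called 30, 62 and 778.

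*Slc7a11* stood at 558, 542 and 1432 with DMF and 353, 383 and 157 with MMF at 24 h. All DMF libraries lay above all MMF libraries, by log2 ratios of 0.66 and 0.50 in replicates 1 and 2 and 3.18 in replicate 3. The difference of 1.44 ± 0.424 (95% interval 0.48 to 2.41) was called with the block (adjusted p = 0.0408) and not without it (adjusted p = 0.119), so that 2 members were called with the block, beside 12.2% of all genes. Without replicate 3 of both groups it was 0.58 and called (adjusted p = 0.0191). At 24 h 4 members did not overlap between both drugs, beside 22.7% of all genes: *Gclc*, *Gss* and *Slc7a11* above and *Ggct* below with DMF. *Ggct* held 159, 172 and 143 normalised reads with DMF and 219, 189 and 188 with MMF (difference -0.33 ± 0.130, adjusted p = 0.235, with the block 0.113).

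At 4 h limma called 0 of 10 members between DMF and MMF, beside 1.61% of all genes. There edgeR called 0, beside 1.87%, and DESeq2 called 1, beside 5.24%. In limma 1 member had an unadjusted p under 0.05, beside 17.4% of all genes. That member was *Gclm*, at 545, 574 and 476 with DMF and 387, 424 and 382 with MMF, without overlap (difference 0.41 ± 0.106, 95% interval 0.17 to 0.66, adjusted p = 0.0936). With the block, 3 members were called beside 23.6% of all genes: *Gclm* (adjusted p = 0.00154), *Gclc* (0.34 ± 0.170 without the block, adjusted p = 0.352, with it 0.000761) and *Slc7a11* (0.78 ± 0.354, adjusted p = 0.305, with it 0.002). *Gclm*, *Gsr* and *Gpx4* did not overlap between both drugs at 4 h, beside 24.2% of all genes.

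For the other members that were not called without the block, the intervals show what the data leave possible. At 24 h the 95% interval of DMF minus MMF on the log2 scale was -0.14 to 0.29 for *Gclm*, -0.08 to 0.40 for *Gss*, -0.09 to 0.30 for *Gsr*, -0.20 to 0.17 for *Gpx4* and -0.39 to 0.14 for *Glrx*. For *Gpx1* and *Chac2* it was -0.37 to 0.30 and -0.38 to 0.22. All 7 of these intervals include 0, while those of *Ggct* (-0.62 to -0.03) and of *Slc7a11*, given above, do not. A p that misses the threshold does not show that both fumarates act alike on these genes.

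**Figure D4:**
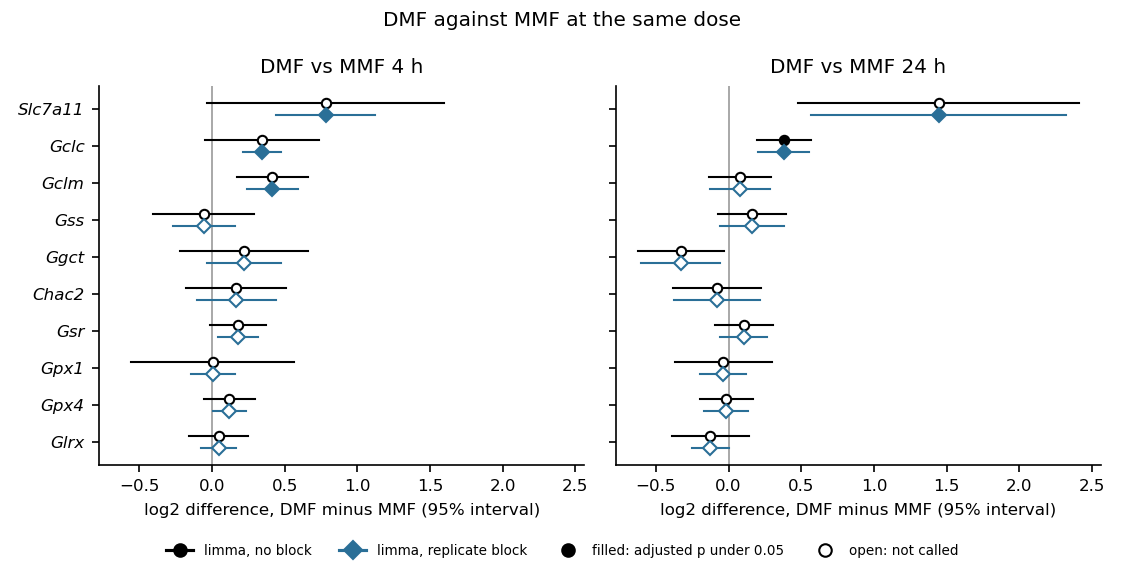
Difference of DMF minus MMF on the log2 scale (x axis) with 95% intervals for the 10 genes at 4 h and 24 h, without (circles) and with (diamonds) the replicate block, filled where the adjusted p was under 0.05. *Slc7a11* lies farthest to the right at both times, at 0.78 and 1.44, and without the block the intervals of *Gpx1*, *Gpx4* and *Glrx* include 0.

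CBD, given at another dose and in another solvent, is set beside the fumarates without a test. At 24 h the *Slc7a11* log2FC was 2.17 with DMF, 0.73 with MMF and 1.80 with CBD, each against its own vehicle, and the *Gclc* log2FC was 0.74, 0.36 and 0.34. For *Gclm* these values were 0.16, 0.08 and 0.45. DMF and MMF share their DMSO libraries, so their values against DMSO are not independent.

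Other genes show how the 3 CBD replicates stood. They were chosen after their values were seen. *Mt1* (metallothionein) and *Slc30a1* (zinc exporter) had log2 ratios to EtOH of 3.24 and 0.87 in replicate 1 at 24 h, 3.94 and 0.86 in replicate 2, and 4.84 and 1.20 in replicate 3. Both thus stood well above EtOH in all 3 replicates. *Hmox1* (heme oxygenase) had log2 ratios of 0.44, 4.29 and 6.42 and *Slc3a2*, the partner of *Slc7a11*, of 0.38, 1.41 and 2.15 in replicates 1, 2 and 3 at 24 h. *Chac1* had -0.31, 1.395 and 2.80. Replicate 1 of CBD was thus the lowest for these 3 genes as for *Slc7a11*, *Gclm* and *Gclc*, while its *Mt1* and *Slc30a1* ratios were well above 0. *Mt1* too was lowest in replicate 1, at 24 h and at 4 h (2.63, against 4.07 and 3.90 in replicates 2 and 3). So was *Slc30a1* at 4 h (1.02, against 1.29 and 1.22).

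**Figure D5:**
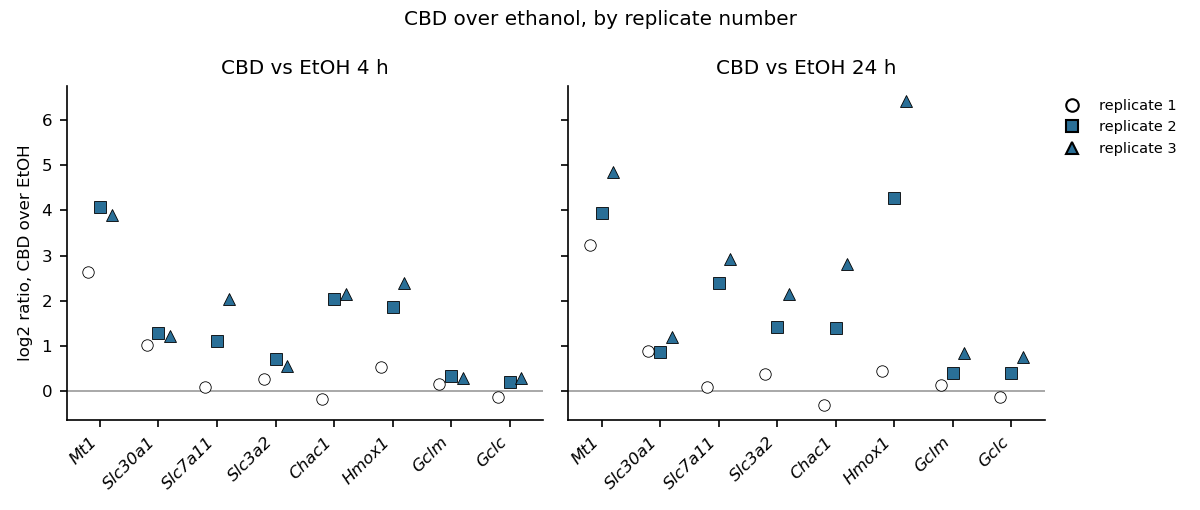
Log2 ratios of CBD over the EtOH library of the same replicate number (y axis) for 8 genes (x axis) at 4 h and 24 h, with an open circle for replicate 1, a square for replicate 2 and a triangle for replicate 3. In replicate 1 *Mt1* and *Slc30a1* lie at 0.87 or higher, while *Slc7a11*, *Chac1*, *Gclm* and *Gclc* lie between -0.31 and 0.16. Between them in replicate 1, at 4 h and 24 h, lie *Hmox1* (0.52 and 0.44) and *Slc3a2* (0.26 and 0.38).

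The wider glutathione system was described with 46 further genes in 5 lists, which were fixed by function with earlier results of these data known. For DMF at 24 h limma called 1 of 6 tested genes of glutathione breakdown, 1 of 12 of cysteine supply and 1 of 9 of glutathione transport, all higher, and 0 of 7 peroxidases and glutaredoxins and 0 of 6 of glutathione-dependent detoxification. At 4 h of DMF the call was 1 gene of transport, and with MMF and CBD 0 genes of any list were called. Of all genes, limma called 3.97% for DMF at 24 h and 3.41% at 4 h. For MMF it called 0% at 4 h and 0.00707% at 24 h, and for CBD 0.00705% and 0.114%. With the block the DMF counts were 2 of 7 breakdown genes higher, 3 of 12 of cysteine supply higher and 2 lower, 1 of 9 of transport higher and 2 lower and 1 of 6 of detoxification higher at 4 h, and 2, 3 (with 1 lower), 2 and 0 higher at 24 h. Beside these counts the blocked fit called 23% of all genes at 4 h and 12.9% at 24 h. For CBD at 4 h, where it called 2.33% of all genes, it called 1 breakdown, 3 cysteine supply and 1 transport gene higher, *Chac1* (adjusted p = 0.00702), *Slc3a2* (9.45e-05) and *Abcc4* (0.00209) among them. The list medians at 24 h of DMF ran from -0.04 (transport) to 0.16 (breakdown), beside -0.01 for all genes.

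The breakdown gene was *Chac1*, a glutathione-specific cyclotransferase and a known ATF4 target. With DMF at 24 h it stood at 404, 579 and 571 normalised reads against 214, 192 and 206 in DMSO, without overlap (log2FC 1.32 ± 0.145, limma adjusted p = 0.002). It also differed between DMF and MMF at 24 h, by 1.23 ± 0.150 (adjusted p = 0.0035). Both calls were lost without replicate 2 of both groups (adjusted p = 0.0533 and 0.087) and with the spread of all 30 libraries (adjusted p = 0.203 and 0.242). At 4 h of DMF it stood at 537, 505 and 910 against 400, 223 and 283, without overlap (log2FC 1.09 ± 0.265, adjusted p = 0.0631, with the block 0.000162). With MMF its log2FC was -0.13 at 4 h and 0.09 at 24 h. Within the same cultures, then, a gene of glutathione breakdown and genes of synthesis and import rose with DMF at 24 h, while the cyclotransferases *Chac2* and *Ggct* were not called.

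The cysteine supply gene was *Slc3a2*, the heavy chain that carries Slc7a11 and other amino acid transporters to the cell surface. After 24 h of DMF it stood at 5119, 6224 and 7371 against 3929, 4140 and 3957, without overlap (log2FC 0.62 ± 0.116, limma adjusted p = 0.0227). The call was lost without any 1 library of DMSO (adjusted p = 0.117, 0.0698 and 0.0824 without replicates 1, 2 and 3), without replicate 2 of DMF (0.0827), without replicate 1 or 2 of both groups (0.0592 and 0.207) and with the spread of all 30 libraries (0.184). With CBD at 24 h it stood at 5452, 12667 and 19192 against 4188, 4775 and 4331, with a log2FC of 1.31 ± 0.381 that was not called (adjusted p = 0.379, with the block 0.0948).

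The transport gene was *Abcc4*, an efflux pump that can carry glutathione with its substrates. At 24 h of DMF it stood at 467, 569 and 722 against 345, 365 and 297 (log2FC 0.78 ± 0.155, limma adjusted p = 0.0274), and at 4 h at 535, 526 and 453 against 361, 379 and 361 (log2FC 0.46 ± 0.0999, adjusted p = 0.0494). Neither pair of groups overlapped. The 4 h call was lost without any 1 library (adjusted p = 0.0639 to 0.173), in edgeR (0.0535), with TMM scaling (0.0526), without the filter (0.055) and with the spread of all 30 libraries (0.326). The 24 h call was lost without any 1 library of DMSO (0.116, 0.0669 and 0.1), without replicate 2 of DMF (0.0912), without replicate 1 or 2 of both groups (0.0941 and 0.193) and with the spread of all 30 libraries (0.112).

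Genes with the pattern most like 3 members were sought by Pearson's r over the 10 group means of log2 levels, given as a description over points that share libraries and scaling. For *Slc7a11* these were *Trim66* (r = 0.987), *Trib3* (0.980), a pseudokinase of the ATF4 response, and *Adgrg6* (0.963). Over the 30 libraries with the mean of each replicate number removed, r was 0.736, 0.884 and 0.864. For *Gclc* they were *Hsd17b3* (0.966, and 0.727 over the 30 libraries), *Fnip2* (0.936 and 0.762) and *Sfn* (0.932 and 0.675). For *Gclm* they were *Tmem41b* (0.974 and 0.845), *Rnf130* (0.968 and 0.764) and *Or6f2* (0.952 and 0.674). Between these 3 members r was 0.583 over the group means and 0.617 over the 30 libraries for *Slc7a11* and *Gclc*, 0.717 and 0.678 for *Slc7a11* and *Gclm*, and 0.715 and 0.701 for *Gclc* and *Gclm*. With the other members, r of these 3 over the group means ran from -0.526 (*Slc7a11* and *Chac2*) to 0.895 (*Gclc* and *Gsr*). The genes named as most like a member are its top 3 of 14930 by the first measure, so their values over the group means are high by choice.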

How the data were processed

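Wild-type rat neurons were profiled by poly(A) RNA sequencing in 30 libraries (10 groups of 3). Per the labels and methods, the authors inspected the reads (FastQC 0.12.1), trimmed them (cutadapt 4.4, Trimmomatic 0.39), used HISAT2 2.2.1 for alignment to the mRatBN7.2 genome, took gene counts from HTSeq 2.0.3 and divided the counts by DESeq2 1.40.2 size factors (R 4.3.1). The deposited signal values are these normalised counts, in 1 table per comparison of 6 libraries. 8 tables were used. 11 others were not, and neither were the authors' columns of log2 fold changes and p-values. Whole reads were recovered from the tables (100% of values whole within 0.001) and gave the depth, 15108132 to 25367834 reads on genes per library.

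Genes kept by edgeR's filterByExpr were tested on log2(value + 1) with limma 3.58.1 (empirical Bayes with a mean trend), with Benjamini-Hochberg adjustment over all genes tested and a threshold of 0.05. The fit held only the libraries compared. The interaction and the levels over 30 libraries used recovered reads with median-ratio size factors. Groups came from sample titles. Same-numbered libraries deviated together (r = 0.129 to 0.668, at most 0.137 between other numbers), and the study describes 3 repeats of the experiment, so a fit with the replicate number as a block is given. Replicate 2 of MMF and DMSO at 4 h, at 0.129, did not exceed the highest r between other numbers there (0.134). Alternatives were this block, edgeR 4.0.16 (TMM), DESeq2 1.42.0, TMM scaling, no filter, a pseudocount of 0.1, the spread of all 30 libraries, and leaving out each library. Leaving out a replicate number in both groups and edgeR with the block were added after the data were seen. The members, the lists and the motifs were chosen with earlier results of these data known. All members were named, as were genes of the other lists called in a drug comparison without the block and, for 3 members, the 3 genes most like each. The scripts were tested on simulated data. *Gpx3*, *Ggt5* and *Cldn5* were not analysed here. Exon lengths were not used, so levels are not compared between genes.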

Additional observations from a re-analysis of the deposited data

Results flagged for a closer look

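The mean log2 ratio of *Gss* to EtOH differed in sign between the CBD times. It was -0.10 at 4 h, where 0 of 3 replicates lay above their vehicle, and 0.12 at 24 h, where 3 of 3 did, a difference of 0.23. Replicate 1 at 24 h was nearly level, with 230.3 normalised reads in CBD against 229.7 in EtOH (log2 ratio 0.003). The share of all genes with such a change of sign is not given. The difference between times was not tested, and *Gss* was called at neither time (limma adjusted p = 1 and 0.754).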

How the results depend on the processing

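TMM scaling, a pseudocount of 0.1, no filter and edgeR left all 9 counts of members called as reported. The replicate block gave 3 members for DMF at 4 h, 2 for MMF at 24 h, 1 for CBD at 4 h, 3 for DMF against MMF at 4 h and 2 at 24 h, and edgeR with the block gave 3, 3, 1, 3 and 2 in the same order and 1 for the DMF effect at 24 h minus 4 h, beside 22.6%, 1.77%, 2.62%, 23.4%, 12.1% and 13.4% of all genes. DESeq2 gave 2 for DMF at 4 h and 1 for DMF against MMF at 4 h. The spread of all 30 libraries gave 2 for DMF at 4 h, 2 for CBD at 24 h, 1 for DMF against MMF at 4 h and 0 at 24 h, beside 10.2%, 2.6%, 9.26% and 4.55% of all genes. The block changed no call of a member beyond those given in the report.

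Leaving out libraries moved the counts to 0 to 1 for DMF at 4 h, 0 to 2 for DMF at 24 h, 0 to 1 for MMF at 24 h, 0 to 1 for CBD at 24 h and 0 to 1 for DMF against MMF at 24 h. Calls over all genes moved too. For DMF at 4 h limma called 485 of 14208 genes, and 1, 0 and 34 without replicate 1, 2 or 3 of both groups. In the same order these numbers were 62, 75 and 734 for DMF at 24 h, against 554 of 13967. They were 0, 0 and 13 for MMF at 24 h (against 1), and 2, 0 and 13 for CBD at 24 h (against 16). Without 1 library they were 28 to 154 for DMF at 4 h and 141 to 1165 at 24 h. No log2FC changed sign under the other settings. Without a library or a replicate number of both groups, members that were not called changed sign, and their log2FCs ran as follows. For DMF against DMSO at 4 h they were *Gss* -0.056 to 0.20, *Gpx1* -0.29 to 0.20 and *Chac2* -0.068 to 0.16. For DMF against DMSO at 24 h they were *Gpx4* -0.038 to 0.072 and *Ggct* -0.13 to 0.053. For MMF against DMSO at 4 h they were *Gclm* -0.021 to 0.23, *Gsr* -0.062 to 0.029, *Slc7a11* -0.42 to 0.37, *Gpx1* -0.28 to 0.16, *Gpx4* -0.070 to 0.054, *Glrx* -0.033 to 0.082 and *Ggct* -0.093 to 0.36. For MMF against DMSO at 24 h they were *Gpx4* -0.023 to 0.089, *Glrx* -0.049 to 0.14 and *Chac2* -0.24 to 0.047. For CBD against EtOH at 4 h they were *Gsr* -0.024 to 0.0034 and *Gpx1* -0.20 to 0.29. For CBD against EtOH at 24 h they were *Gsr* -0.065 to 0.089, *Ggct* -0.045 to 0.28 and *Chac2* -0.26 to 0.13. For DMF against MMF at 4 h they were *Gss* -0.16 to 0.057, *Gpx1* -0.20 to 0.26 and *Glrx* -0.0045 to 0.11. For DMF against MMF at 24 h they were *Gclm* -0.0086 to 0.16, *Gpx1* -0.17 to 0.083 and *Gpx4* -0.077 to 0.080. For the DMF effect at 24 h minus 4 h they were *Gclc* -0.12 to 0.22 and *Gsr* -0.032 to 0.099. The causes were not tested. With 3 libraries a group, a member that was not called may still differ within its interval.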
